A study of Mus musculus with 18 samples.

Results

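The genes described are 10 mouse genes of protein folding and stress sensing in the endoplasmic reticulum (ER): Hspa5, Hsp90b1, Dnajb9, Calr, Canx, Pdia3, Pdia4, Pdia6, Xbp1 and Herpud1. They were taken by symbol from the deposited count table, which has 54354 rows. Each symbol occurs in 1 row, and all 10 genes were among the 11780 tested. Their values were read in the 10 libraries of the serine-free diets. The serine-free high fat diet group (SF_HFD) has 5 libraries, and the serine-free control diet group (SF_CD) has 5. All of them are labelled as colon tissue with the cell type tumor, and as wild type. The extraction protocol names organoids, which are small three-dimensional epithelial cultures, whereas the series' design text describes sorted live cells, and which applies is not settled here. Whether a group's libraries were grown from different animals is not stated either, so the spread that enters the p-values is that of these libraries and may be technical. The other 8 libraries, 5 on a high fat diet and 3 on a control diet, were not used, because their row labels do not name the genes of their counts. In those libraries the rows of Hsp90b1, Xbp1, Calr, Canx, Pdia4 and Pdia6 held 0 counts throughout, while these 6 genes had at least 11 counts in every serine-free library. The rows of Pdia3 and Dnajb9 held at most 11 counts there, whereas those of Hspa5 and Herpud1 held 398 to 1044 and 337 to 1219.

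Proteins that leave the cell or reach its membranes fold in the ER, where chaperones hold unfolded chains, lectin chaperones retain glycoproteins and disulfide isomerases form and rearrange cysteine bonds. When unfolded chains accumulate, the sensors IRE1, ATF6 and PERK start the unfolded protein response. IRE1 splices the Xbp1 mRNA, ATF6 is cut to release a transcription factor, and PERK slows translation and raises ATF4. The XBP1 and ATF6 proteins raise chaperone genes and genes of ER-associated degradation, the route that returns misfolded proteins to the cytosol. Secretory cells of the colon, such as goblet cells and plasma cells, depend on this machinery heavily.

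Part of these genes is known to be controlled through the ER stress response element (ERSE), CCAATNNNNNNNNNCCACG, which the general factor NF-Y and ATF6 bind. The ERSE was found in 5 of the 10 promoters, against 0.119% of the 32851 promoters in the RefSeq table. The promoters are windows of 300 bases (250 before to 50 after the annotated start, RefSeq, GRCm38.p6), all 10 genes had one, and both strands were searched. Hsp90b1 held 2 matches, and Hspa5, Calr, Canx and Pdia6 held 1 each. The second form, ERSE-II (ATTGG, any base, then CCACG), was found in Herpud1, against 0.0365% of all promoters. The element TGACGTGG, bound by XBP1, was found in none of the 10 promoters (0.676% of all) and its variant TGACGTGA only in Hspa5 (0.441% of all). No motif overlapped another. Pdia3, Pdia4, Xbp1 and Dnajb9 held none of these letters in the window. The Dnajb9 window (chromosome 12, 44210019 to 44210318, minus strand) lies inside the gene as annotated by GENCODE M21, which starts at 44210326. No base upstream of that start was therefore searched for Dnajb9. The Pdia4 window (chromosome 6, 47813463 to 47813762, minus strand) lies wholly before the GENCODE M21 start at 47813430. In the Pdia3 window (chromosome 2, 121413652 to 121413951, plus strand) only the bases before 121413775 lie upstream of the GENCODE M21 start. The absence of a match in these genes holds only for the windows searched. The 250 bases before the start sites of Hspa5 (chr2:34771840-34772089, plus strand) and Hsp90b1 (chr10:86705445-86705694, minus strand) are shown because Hsp90b1 had the largest difference between the diets and Hspa5, which carries the same element, is the chaperone that binds the sensors. Capitals mark the ERSE, and where it lies on the opposite strand its reverse complement is in capitals.
Hspa5: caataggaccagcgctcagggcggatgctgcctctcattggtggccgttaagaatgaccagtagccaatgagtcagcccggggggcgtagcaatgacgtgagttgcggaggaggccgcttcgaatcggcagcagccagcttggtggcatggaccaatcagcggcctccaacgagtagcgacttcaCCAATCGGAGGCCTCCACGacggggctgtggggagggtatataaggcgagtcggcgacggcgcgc
Hsp90b1: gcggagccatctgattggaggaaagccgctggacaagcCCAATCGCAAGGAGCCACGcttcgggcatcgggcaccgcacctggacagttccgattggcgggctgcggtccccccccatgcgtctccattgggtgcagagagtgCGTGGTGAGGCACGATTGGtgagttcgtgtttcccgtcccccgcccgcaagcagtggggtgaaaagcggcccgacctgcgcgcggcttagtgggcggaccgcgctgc

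The other matches, of the ERSE in Calr, Canx and Pdia6 and of the ERSE-II in Herpud1, are shown in capitals with 10 bases on each side. They lie at chr8:84847065-84847103 for Calr (minus strand), chr11:50325790-50325828 for Canx (minus strand), chr12:17266481-17266519 for Pdia6 (plus strand) and chr8:94386367-94386397 for Herpud1 (plus strand), all in GRCm38.p6.
Calr: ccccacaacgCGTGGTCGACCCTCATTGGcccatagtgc
Canx: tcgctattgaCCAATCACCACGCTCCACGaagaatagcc
Pdia6: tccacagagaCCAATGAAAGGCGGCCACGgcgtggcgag
Herpud1: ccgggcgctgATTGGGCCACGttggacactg

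**Figure D1:**
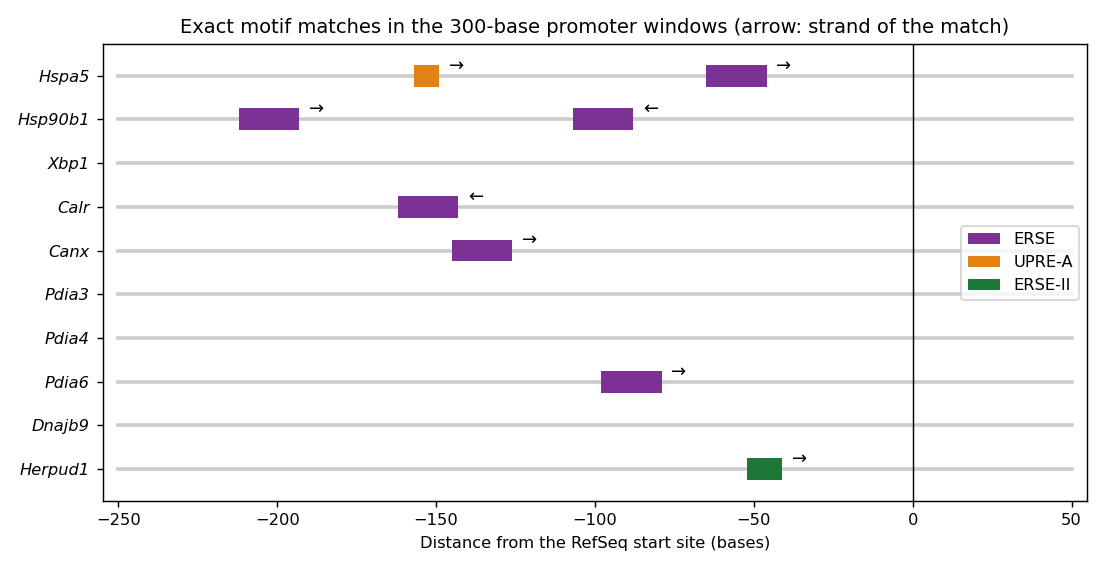
Each line is the 300-base window of 1 gene, with the distance from the RefSeq start site in bases on the horizontal axis and the exact matches drawn as blocks. The ERSE lies at -65 to -47 in Hspa5, at -212 to -194 and -107 to -89 in Hsp90b1, at -162 to -144 in Calr, at -145 to -127 in Canx and at -98 to -80 in Pdia6, and the ERSE-II of Herpud1 lies at -52 to -42.

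The libraries differed in depth and RNA content. Total counts ranged from 727610 to 12146933 in SF_HFD and from 499774 to 12841275 in SF_CD. The SF_HFD library 5 and the SF_CD libraries 1 and 5 had under 1000000 counts, where 3 counts are worth 4.12, 6 and 5.73 CPM (counts per 1000000), against at most 0.822 CPM in the other 7. Ribosomal RNA took 2.97% to 7.19% of the counts in SF_HFD, 22% and 14.5% in the SF_CD libraries 1 and 5 and 2.08% to 2.40% in the other SF_CD libraries. The transcript Malat1 took 12.1% of the counts in the SF_CD library 1 and at most 1.66% in any other library. Mitochondrially encoded genes took 8.29% and 9.82% in the SF_CD libraries 1 and 5, against 3.88% to 6.6% in the others. All 10 epithelial marker genes were tested, and none was called. Their summed level was 4845 to 6544 counts per 1000000 in SF_HFD and 2164 to 4418 in SF_CD. Of 6 smooth muscle markers tested, all 6 had a positive log2 fold change, and 3 were called higher in SF_HFD. The summed level of this list was 168 to 280.4 counts per 1000000 in SF_HFD and 2.62 to 22.9 in SF_CD. The fibroblast list had 7 tested genes, all 7 with a positive log2 fold change, and 1 was called higher (119 to 209 against 39.0 to 162). Of 8 goblet and secretory markers tested, 7 had a negative log2 fold change (summed level 124 to 412 against 134 to 351). Of these, 2 were called lower in SF_HFD, Zg16 and Muc2. Both were rare, Zg16 at 0.018 CPM in SF_HFD against 16.4 CPM in SF_CD and Muc2 at 0.018 against 3.11 CPM. In the SF_CD libraries 1 and 5 Muc2 lay below the level of 3 counts. The 1 marker of this list with a positive log2 fold change was Agr2, at 152 ± 109 CPM in SF_HFD against 94.6 ± 81.5 CPM in SF_CD. All 3 myeloid markers tested had a negative log2 fold change, and 1 was called lower in SF_HFD (summed level 9.04 to 45.4 against 34.7 to 115). Of 12 plasma cell markers 2 were tested and neither was called (summed level 169 to 272 against 104 to 182). They were Sdc1, which epithelial cells also express, at 194 ± 34.9 CPM in SF_HFD against 118 ± 19.9 CPM in SF_CD, and Prdm1, at 16.0 ± 7.66 against 38.2 ± 28.7 CPM. Of the 12 markers, Mzb1, Tnfrsf17 and Irf4 had 0 counts in all 10 libraries. The other untested markers, among them Jchain, Igkc and Ighm, had counts in at least 1 library. Of 5 endothelial markers 1 was tested, Pecam1, and it was not called (summed level 1.37 to 4.71 against 3.63 to 30.0). The part of these differences in the results that follow was not tested.

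No member passed the threshold between SF_HFD and SF_CD (an adjusted p under 0.05 over all genes, by the quasi-likelihood test of edgeR with Benjamini-Hochberg adjustment). Of all genes tested, 0.323% passed, 0.153% as higher and 0.17% as lower in SF_HFD. Hsp90b1 had the largest difference among the 10, and was lower in all 5 SF_HFD libraries than in the lowest SF_CD library. The log2 fold change was negative for 7 members and positive for 3, with a median of -0.17, against 0.02 over all genes tested. At an unadjusted p under 0.05 there were 2 members, Hsp90b1 and Pdia4, both lower in SF_HFD, against 11.6% of all genes. DESeq2 called 1 member, Hsp90b1, against 2.84% of all genes by that tool, and limma-voom called 0, against 1.47%.

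Only Hsp90b1, 1 of the 10 members, had groups without overlap, against 3.65% of all genes in either direction and 1.42% in the lower direction. Since RNA was measured in bulk, fewer cells of a type and less RNA per cell cannot be told apart.

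**Figure D2:**
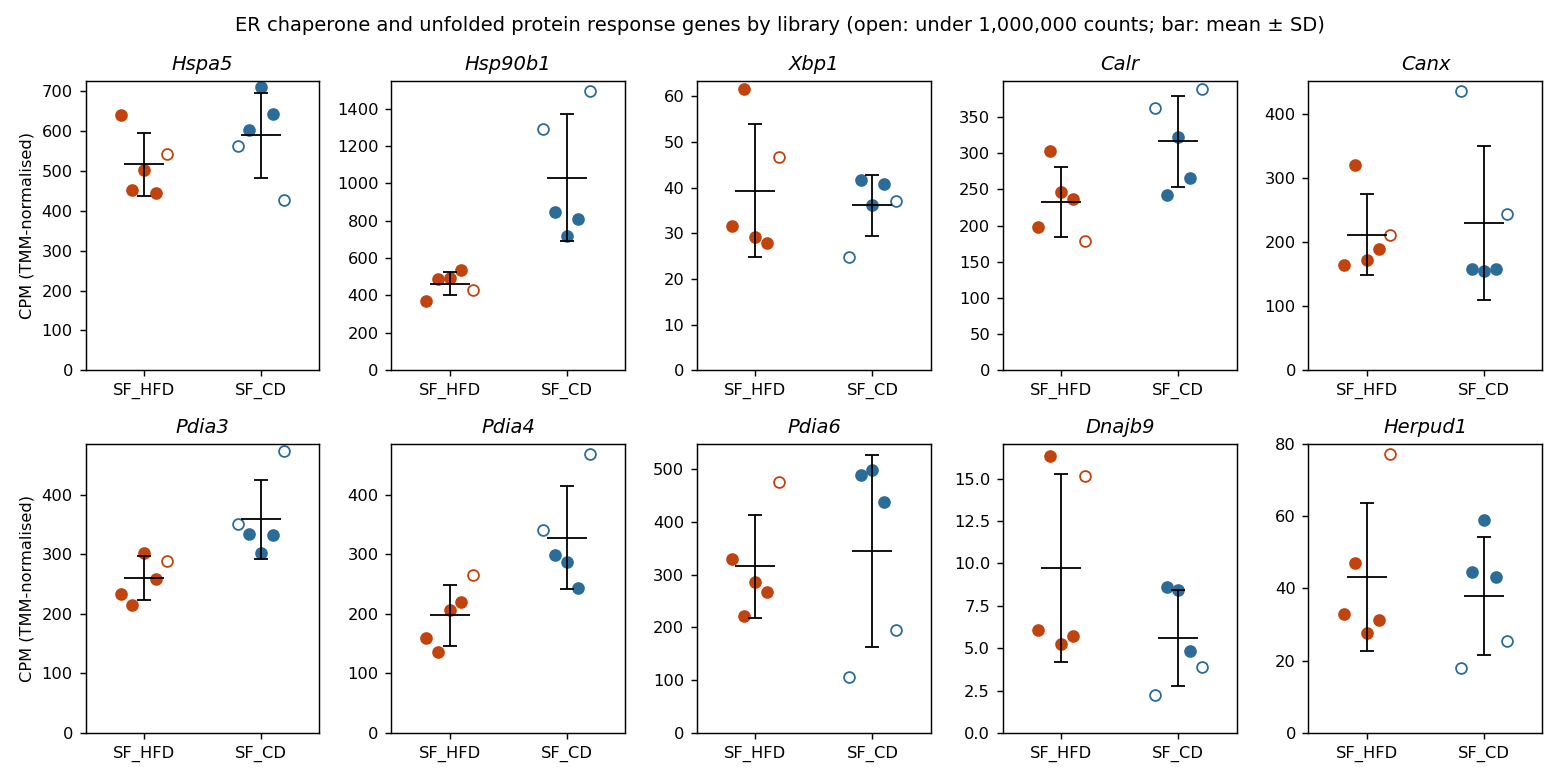
Each panel plots the level of 1 gene in CPM on the vertical axis, by group, with 1 point per library (open points have under 1000000 counts) and the mean ± SD over 5 libraries as a bar. The SF_HFD points of Hsp90b1, at 372 to 536 CPM, lie below all SF_CD points, at 719 to 1492 CPM, and the groups overlap in the other 9 panels.

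The general chaperones are Hsp90b1, Hspa5 and the co-chaperone Dnajb9. Hsp90b1 (GRP94), the ER member of the HSP90 family, folds integrins and Toll-like receptors among others (GRCm38 chromosome 10, 86690209 to 86705509, minus strand, 16 merged exons). Hsp90b1 was at 372, 490.4, 493, 536 and 429 CPM in the SF_HFD libraries 1 to 5, and at 1289, 847, 719, 808 and 1492 CPM in the SF_CD libraries 1 to 5. The SF_CD libraries 1 and 5, which have under 1000000 counts and the most ribosomal RNA, were the highest, and the other 3 SF_CD libraries still lay above every SF_HFD library. Hsp90b1 averaged 464 ± 64.0 CPM in the SF_HFD libraries and 1031 ± 339 CPM in the SF_CD libraries (SD, n = 5 each). Its log2 fold change was -1.15 ± 0.30 (SE), with an unadjusted p of 0.00146 and an adjusted p of 0.139 (edgeR). Without the 3 libraries under 1000000 counts it was -0.74 ± 0.20, with an edgeR adjusted p of 0.161. DESeq2 gave a log2 fold change of -1.25 and an adjusted p of 0.00537, and the adjusted p ranged from 0.00537 to 0.618 over 19 alternatives, in all of which the sign was negative.

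Hspa5 (BiP, GRP78), the ER member of the HSP70 family, binds unfolded chains and holds the 3 stress sensors inactive (chromosome 2, 34771970 to 34777547, plus strand, 7 merged exons). Hspa5 was at 639.7, 453, 503, 444 and 542 CPM in the SF_HFD libraries 1 to 5, and at 564, 603, 711, 642 and 426 CPM in the SF_CD libraries 1 to 5. The groups overlapped, and the lowest value of all stood in the SF_CD library 5, where Hsp90b1 was highest. Hspa5 averaged 516 ± 79.6 CPM in the SF_HFD libraries and 589 ± 106 CPM in the SF_CD libraries. Its log2 fold change was -0.19 ± 0.28 (edgeR adjusted p = 0.843). Its SDs were 15.4% of the mean in SF_HFD and 18.0% in SF_CD, which made it the member with the smallest relative spread in SF_CD.

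The ratio of Hsp90b1 counts to Hspa5 counts within a library was 0.581, 1.08, 0.980, 1.21 and 0.793 in the SF_HFD libraries 1 to 5, and 2.29, 1.41, 1.01, 1.26 and 3.50 in the SF_CD libraries 1 to 5. The groups overlapped in this ratio, and the SF_CD libraries 1 and 5 stood highest. It is a description of 2 members chosen after their values were seen, and it was not tested.

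Dnajb9 (ERdj4) is an ER J-domain protein that works with Hspa5 and restrains IRE1. It was the rarest member, at 6.06, 16.4, 5.27, 5.74 and 15.2 CPM in the SF_HFD libraries 1 to 5, and at 2.25, 8.59, 8.41, 4.86 and 3.89 CPM in the SF_CD libraries 1 to 5. The SF_HFD libraries 2 and 5 were the highest and the 3 other SF_HFD libraries lay within the SF_CD range. The SF_CD libraries 1 and 5 held only 1 and 2 counts of Dnajb9, below the floor of 3 counts, so their levels are not resolved at this depth. The log2 fold change was 0.59 ± 0.51 (edgeR adjusted p = 0.703). Of the 31-base words of the annotated Dnajb9 transcripts, 10.8% also occur in other genes, mostly the processed pseudogene Gm6568, whose row had 0 counts in all 10 libraries. In the other members this share was at most 4.09%.

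The lectin chaperones Calr and Canx retain glycoproteins until they are folded, Calr in the ER lumen and Canx in its membrane. Calr (chromosome 8, 84841850 to 84846934) was at 197, 303, 247, 237 and 178 CPM in the SF_HFD libraries 1 to 5, and at 363, 243, 322, 265 and 389 CPM in the SF_CD libraries 1 to 5. The SF_CD libraries 1 and 5 were again the highest, and the other SF_CD libraries lay among the higher SF_HFD values or just above them. On the log2 scale Calr differed by -0.44 ± 0.29 (edgeR adjusted p = 0.587). Canx (chromosome 11, 50293961 to 50325673) was at 165, 321, 172, 189.7 and 211 CPM in the SF_HFD libraries 1 to 5, and at 435, 158, 155, 158 and 243 CPM in the SF_CD libraries 1 to 5. The 3 deep SF_CD libraries were within 3 CPM of each other and below every SF_HFD library, while the SF_CD library 1 was the highest of all. The log2 fold change of Canx was -0.11 ± 0.36 (edgeR adjusted p = 0.945), 0.43 without the 3 libraries under 1000000 counts and 0.26 without the SF_CD library 1.

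The 3 disulfide isomerases are Pdia3 (ERp57), which works with Calr and Canx on glycoproteins, Pdia4 (ERp72) and Pdia6 (P5). Pdia4 (chromosome 6, 47796141 to 47813430) was at 159.6, 136, 206, 220.2 and 265 CPM in the SF_HFD libraries 1 to 5, and at 340.4, 298, 287, 243 and 469 CPM in the SF_CD libraries 1 to 5. The groups overlapped only through the SF_HFD library 5, which lay above the SF_CD library 4. Pdia4 averaged 197 ± 50.9 CPM in the SF_HFD libraries and 328 ± 86.5 CPM in the SF_CD libraries, with a log2 fold change of -0.73 ± 0.31 (unadjusted p = 0.0318, adjusted p = 0.371, edgeR). Pdia3 (chromosome 2, 121413775 to 121438687) was at 233, 215, 303, 258 and 289 CPM in the SF_HFD libraries 1 to 5, and at 352, 335, 303, 332 and 473 CPM in the SF_CD libraries 1 to 5. Its groups met at a single point, the SF_HFD library 3 and the SF_CD library 3, which were both at 303 CPM. For Pdia3 the log2 fold change was -0.46 ± 0.28 (edgeR adjusted p = 0.540).

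Pdia6 (chromosome 12, 17266545 to 17284770) was at 330.4, 221, 285, 267 and 476 CPM in the SF_HFD libraries 1 to 5, and at 106, 488, 498, 438 and 195 CPM in the SF_CD libraries 1 to 5. In contrast to the other isomerases it was lowest in the SF_CD libraries 1 and 5, and the 3 deep SF_CD libraries lay above the 4 deep SF_HFD libraries. The log2 fold change of Pdia6 was -0.14 ± 0.40 (edgeR adjusted p = 0.934), and -0.78 ± 0.20 without the 3 libraries under 1000000 counts, with an edgeR adjusted p of 0.161. The sign was positive without the SF_CD library 2, at 0.017, and without the SF_CD library 3, at 0.032. In the 7 deep libraries the groups did not overlap for 4 members, with Hsp90b1, Pdia4 and Pdia6 lower and Canx higher in SF_HFD, against 19% of all genes in either direction and 9.48% in the lower direction. None of the members passed the threshold in those libraries.

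Xbp1 and Herpud1 belong to the signalling and degradation side of the response. Xbp1 encodes the transcription factor made after IRE1 splices its mRNA, and counts per gene do not separate the spliced from the unspliced form. Xbp1 (chromosome 11, 5520659 to 5525893) was at 31.5, 61.5, 29.1, 27.8 and 46.7 CPM in the SF_HFD libraries 1 to 5, and at 24.8, 41.7, 36.2, 40.9 and 37.0 CPM in the SF_CD libraries 1 to 5. The SF_HFD libraries 2 and 5 were the highest, and the SF_CD library 1, with 11 counts, was the lowest. For Xbp1 the log2 fold change was 0.10 ± 0.35 (edgeR adjusted p = 0.947). Its sign was negative without the SF_HFD library 2, at -0.13, and without the 3 libraries under 1000000 counts, at -0.09.

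Herpud1 is a membrane protein of the ER-associated degradation complex. Herpud1 (chromosome 8, 94386438 to 94395377) was at 32.8, 47.0, 27.7, 31.2 and 77.0 CPM in the SF_HFD libraries 1 to 5, and at 18.0, 44.5, 58.9, 43.2 and 25.3 CPM in the SF_CD libraries 1 to 5. The highest value, in the SF_HFD library 5, rested on 61 counts, and the 2 lowest, in the SF_CD libraries 1 and 5, on 8 and 13 counts. For Herpud1 the log2 fold change was 0.11 ± 0.40 (edgeR adjusted p = 0.947), and it was -0.50 without the 3 libraries under 1000000 counts, -0.18 without the SF_HFD library 5, and -0.06 and -0.01 without the SF_CD libraries 1 and 5, each left out alone.

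**Figure D3:**
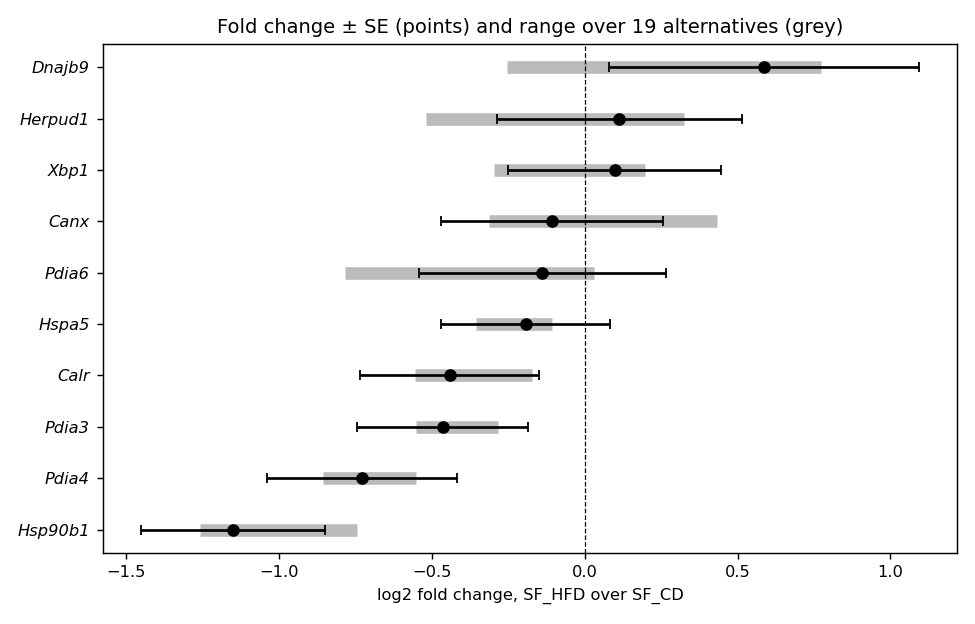
Points give the log2 fold change of SF_HFD over SF_CD with its standard error for each gene, and grey bars give the range over 19 alternatives. The bars of Hsp90b1 (-1.26 to -0.74), Pdia4 (-0.86 to -0.55), Pdia3, Calr and Hspa5 stay below 0, and those of the other 5 genes cross 0.

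Levels of different genes were compared per kilobase of merged exons. In SF_HFD, Hspa5 stood first at 122 ± 18.8 CPM per kilobase and Hsp90b1 second at 115 ± 15.9, a difference smaller than their spread. Pdia6, Pdia3, Pdia4 and Calr followed at 84.4 ± 26.1, 82.8 ± 11.8, 82.3 ± 21.2 and 80.7 ± 16.8 CPM per kilobase, and their order was within their spread. In SF_CD, Hsp90b1 stood first at 256 ± 84.1 CPM per kilobase. Hspa5, Pdia4, Pdia3, Calr and Pdia6 followed at 139 ± 25.1, 137 ± 36.0, 114 ± 21.1, 110 ± 21.7 and 92.1 ± 48.6, and neighbours in this order again differed by less than their spread. Canx, Herpud1, Xbp1 and Dnajb9 came after them in both groups, in that order. Dnajb9 was at 3.81 ± 2.17 CPM per kilobase in SF_HFD and 2.20 ± 1.10 in SF_CD.

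Per 1000000 raw counts, the 10 genes together took 1971, 2692, 2264, 2426 and 2753 in the SF_HFD libraries 1 to 5, and 3101, 2888, 2759, 3052 and 3682 in the SF_CD libraries 1 to 5. Every SF_HFD library lay below every SF_CD library, by a narrow margin between the SF_HFD library 5 and the SF_CD library 3, and the sum was not tested. Hsp90b1 made up 17.0% to 24.2% of the members' counts in SF_HFD and 23.2% to 39.7% in SF_CD. Without Hsp90b1, the other 9 genes took 1633 to 2286 per 1000000 in SF_HFD and 1957 to 2223 in SF_CD. The groups overlapped in these raw shares. That overlap did not hold for the sum of the 9 genes in TMM-normalised CPM, where the SF_HFD library 5 came closest to SF_CD. Neither sum was tested.

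The members did not follow a single pattern over the libraries. Pearson's r and Spearman's rho of log2 CPM were computed for the 45 pairs of members over the 10 libraries, with permutation p-values (100000 resamples, two-sided) adjusted over the 45 pairs. An adjusted p of 0.05 was passed by 8 pairs with Pearson's r and by 5 with Spearman's rho. The share of pairs that pass among other genes was not computed. The permutation also treats libraries of both diets and all depths as interchangeable, so these counts only describe the 10 libraries. The Pearson count was 1 without the 3 libraries under 1000000 counts, and leaving out a single library gave 4 for the SF_HFD library 5, 2 for the SF_CD library 1 and 1 for the SF_CD library 5. The strongest was Pdia3 with Pdia4 (r = 0.94, permutation p = 0.00015, adjusted 0.00675, and rho = 0.87, permutation p = 0.00242, adjusted 0.0272). For this pair r was 0.83 without the 2 libraries farthest from the median of Pdia3, 0.87 for deviations from the group means and 0.89 in the 7 deep libraries. The shallow libraries were too few (3) for an r of their own.

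Hsp90b1 also varied with Pdia3 (r = 0.86, permutation p = 0.0006, adjusted 0.0135, and rho = 0.89, permutation p = 0.00094, adjusted 0.0272). Without the 2 libraries farthest on Hsp90b1 this r was 0.73, for deviations from the group means it was 0.65, and in the deep libraries it was 0.81. Canx and Pdia6 ran in opposite directions (r = -0.86, permutation p = 0.00223, adjusted 0.0201, and rho = -0.87, permutation p = 0.0023, adjusted 0.0272), with r = -0.64 without the 2 farthest libraries, -0.86 for deviations from the group means and -0.78 in the deep libraries. Hspa5 and Hsp90b1 gave r = -0.09 (permutation p = 0.803, adjusted 0.904) and rho = -0.08 (permutation p = 0.836, adjusted 0.991). For deviations from the group means their r was -0.90, and in the 7 deep libraries, which leave out the SF_CD libraries 1 and 5 and the SF_HFD library 5, r of the levels was 0.40.

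**Figure D4:**
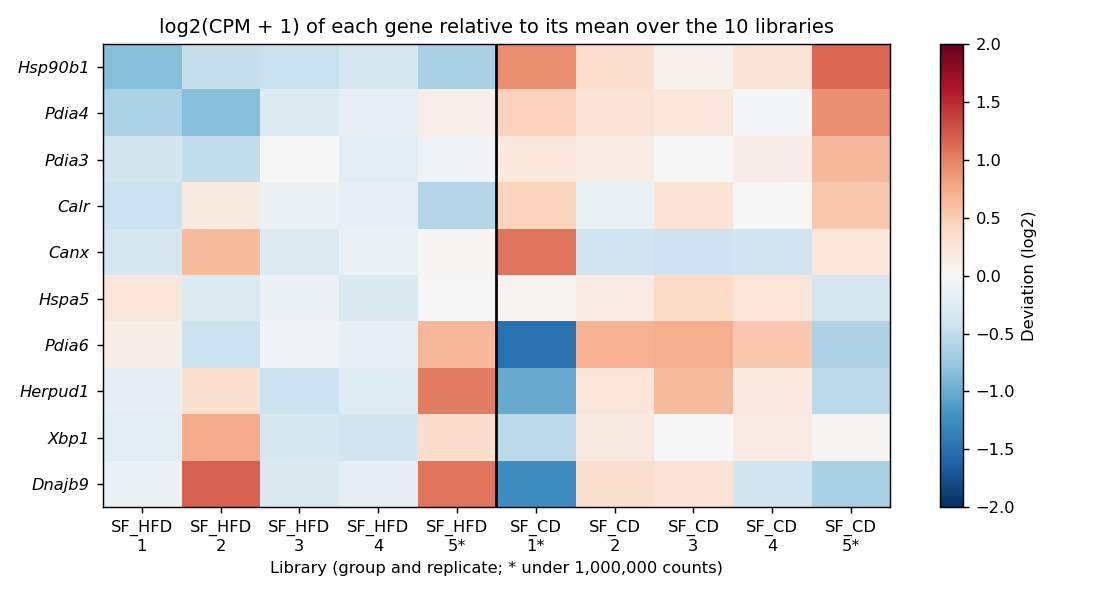
The colour gives log2(CPM + 1) of each gene (rows) in each library (columns) relative to its mean over the 10 libraries. In the SF_CD libraries 1 and 5, Hsp90b1 (0.93 and 1.14), Pdia4, Pdia3, Calr and Canx stood above their means and Pdia6 (-1.49 and -0.62), Herpud1 and Dnajb9 below them.

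Among 5195 genes with a mean of at least 20 CPM, those whose order over the 10 libraries was most like that of Hspa5 by Spearman's rho were Gm37214, Clk4, Psme3ip1, Glyr1 and Stxbp3, at 0.94, 0.88, 0.87, 0.87 and 0.84. This is a description of 10 libraries that differ in depth and RNA content. The closest member was Pdia6, at rank 218 with a rho of 0.68, and Canx stood at rank 5100 with a rho of -0.70.

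The 6 other lists of ER and heat shock genes held 103 tested genes, none of which was called, against 0.323% of all genes. At an unadjusted p under 0.05 there were 5 higher and 4 lower genes of the 103, against 11.6% of all genes. DESeq2 called 1 gene of these lists, Nfe2l2, against 2.84% of all genes. The median log2 fold change of the 103 genes was 0.09. Among them 4 had groups without overlap, against 3.65% of all genes.

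Of 24 other ER folding factors tested, 14 had a positive and 10 a negative log2 fold change (median 0.13). The most abundant were Ppib, a prolyl isomerase, at 363 ± 121 CPM in SF_HFD against 403 ± 217 CPM in SF_CD, and P4hb, the main disulfide isomerase PDI, at 375 ± 76.0 CPM in SF_HFD against 233 ± 72.0 CPM in SF_CD. P4hb had a log2 fold change of 0.68 ± 0.31 (unadjusted p = 0.0445, adjusted p = 0.409, edgeR), opposite in sign to its relative Pdia4. The groups did not overlap for Txndc11, a thioredoxin-domain protein, which was at 8.31 ± 1.52 CPM in SF_HFD against 3.02 ± 2.91 CPM in SF_CD, with 0 counts in the SF_CD libraries 1 and 5.

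Of 16 genes of ER-associated degradation, 9 had a positive and 7 a negative log2 fold change (median 0.10), and Selenok and Vcp were the most abundant, Selenok at 439 ± 156 CPM in SF_HFD against 464 ± 102 CPM in SF_CD. Of 22 genes of translocation into the ER and N-glycosylation, 14 were positive and 8 negative (median 0.08). The most abundant, Dad1 of the oligosaccharyltransferase and Sec61g of the translocation channel, had log2 fold changes of -0.10 and -0.26. Sec62, a subunit of the translocation machinery, was at 215, 205, 186, 205 and 176 CPM in the SF_HFD libraries 1 to 5, and at 656, 239, 248, 304 and 592 CPM in the SF_CD libraries 1 to 5. As for Hsp90b1, the groups did not overlap and the SF_CD libraries 1 and 5 were the highest (log2 fold change -1.04 ± 0.35, edgeR adjusted p = 0.253).

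Of 12 sensors and processing enzymes, 7 were positive and 5 negative (median 0.18). Rtcb, the ligase that joins the spliced Xbp1 mRNA, was at 199 ± 76.0 CPM in SF_HFD against 191 ± 114 CPM in SF_CD, and Creb3, a membrane-bound transcription factor, at 71.6 ± 24.9 CPM against 41.7 ± 27.9 CPM. Of 15 genes of the PERK and ATF4 branch, 6 were positive and 9 negative (median -0.07). Nupr1, a stress-induced chromatin protein, was at 1576 ± 612 CPM in SF_HFD against 2050.3 ± 1049 CPM in SF_CD, and Asns, asparagine synthetase, at 284 ± 90.6 CPM against 214 ± 133 CPM. Nfe2l2 (NRF2), a factor of oxidative defence that PERK can phosphorylate, was at 83.2 to 105 CPM in SF_HFD against 129 to 239 CPM in SF_CD, without overlap (log2 fold change -1.03 ± 0.30, edgeR adjusted p = 0.186).

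Of 14 cytosolic and mitochondrial heat shock genes, 7 were positive and 7 negative (median 0.07). Hsp90ab1, the cytosolic relative of Hsp90b1, was at 1861 ± 661 CPM in SF_HFD against 3349 ± 2001 CPM in SF_CD, with the SF_CD libraries 1 and 5 at 5879 and 5148 CPM and the other SF_CD libraries between 1619 and 2089.9 CPM, within the SF_HFD range of 1432 to 2998 CPM. Its log2 fold change was -0.85 ± 0.40 (edgeR adjusted p = 0.426). Hspa8, the constitutive cytosolic HSP70, was at 2110.3 ± 635 CPM in SF_HFD against 1651 ± 629 CPM in SF_CD. Hspa4, an HSP110-type exchange factor, was at 104 to 202 CPM in SF_HFD against 60.4 to 94.7 CPM in SF_CD, without overlap (edgeR adjusted p = 0.312). Txndc11, Sec62, Nfe2l2 and Hspa4 are named because their groups did not overlap, a choice made after their values were seen.

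**Figure D5:**
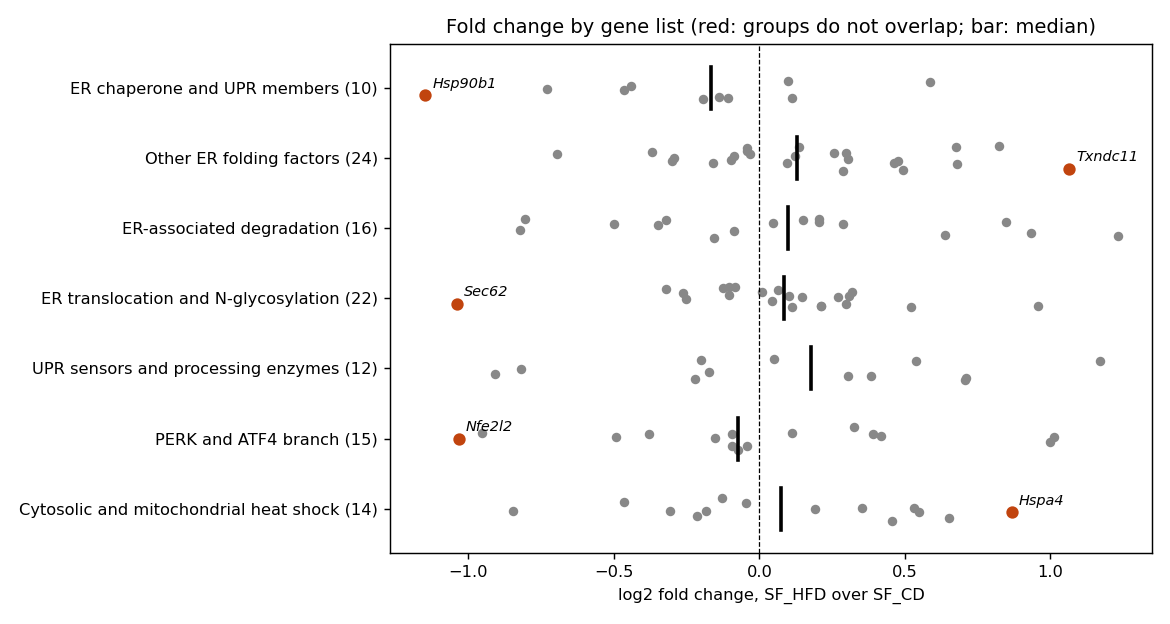
Each point is the log2 fold change of SF_HFD over SF_CD of 1 gene, by list, with the number of genes tested in brackets, the list median as a black bar and genes whose groups did not overlap in red. The list medians lie between -0.17 and 0.18, and Hsp90b1, at -1.15, is the lowest point of the 10 members.

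The genes that carry an ERSE were also read as a set chosen by sequence. There are 37 such genes among the RefSeq promoters, of which 14 were tested. None was called, against 0.323% of all genes. The 5 members among them had log2 fold changes between -1.15 and -0.11. The other 9 ran from -2.44 ± 1.26 in Xlr3a to 1.23 ± 0.69 in Syvn1, the ubiquitin ligase of ER-associated degradation. These 2 genes were rare, Xlr3a at 0.48 CPM in SF_HFD against 2.22 CPM in SF_CD and Syvn1 at 4.11 against 1.60 CPM. Creld2 and Dnajc3, both ER proteins, were at 0.14 and -0.29. Of these 9 genes 4 had a positive and 5 a negative log2 fold change, and for none of them did the groups fail to overlap. Hsp90b1 was the only 1 of the 14 whose groups did not overlap, against 3.65% of all genes in either direction and 1.42% in the lower direction.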

How the data were processed

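The authors deposited 1 table of estimated counts per gene, as whole numbers. The submitters' processing notes name Salmon 1.3.0 and mm10. No annotation release is stated. Libraries came from a directional kit with poly(A) selection, per the labels' protocols. Columns were assigned to samples by name.

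The 10 serine-free libraries were tested over all genes with edgeR 4.0.16 (R 4.3.3), using TMM, filterByExpr with a minimum count of 10, a robust quasi-likelihood fit and Benjamini-Hochberg adjustment at 0.05. CPM are TMM-normalised. Log2 CPM for correlations used a prior count of 2. Counting floors cover counting error only. Gene coordinates are from GENCODE M21, which holds 99.8% of the tested identifiers.

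The alternatives were 2 other normalizations (RLE and upper quartile), no filter, a stricter filter (10 counts in 8 libraries), DESeq2 1.42.0, limma-voom (limma 3.58.1) with sample weights, a replicate block, a 1.5-fold minimum, no libraries under 1000000 counts, and leaving out each library.

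The members and gene lists were chosen with earlier results of these data known. The rule named all members, in each pathway list the called genes (up to 4) and the 2 with the highest mean CPM, and the 5 genes most like Hspa5. Marker lists are given as summed levels and counts.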

Additional observations from a re-analysis of the deposited data

Results flagged for a closer look

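A library far from the other 4 of its group was looked for in 22 genes, in 44 groups of 5 libraries in all, and chance flags about 1 in 20 groups. There were 3 such libraries. Pdia3 was at 473 CPM in the SF_CD library 5, against 303 to 352 CPM in the other SF_CD libraries. Dad1 was at 316 CPM in the SF_HFD library 2, against 629 to 747 CPM in the other SF_HFD libraries. Nupr1 was at 3902 CPM in the SF_CD library 3, against 1402 to 1871 CPM in the other SF_CD libraries.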

How the results depend on the processing

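With edgeR, 18 genes were called higher and 20 lower. The lower count was 54 with no filter and 10 without the 3 libraries under 1000000 counts. The counts were 3 higher and 0 lower with the stricter filter, 86 and 296 with DESeq2, and 100 and 73 with limma-voom. Leaving out 1 library at a time gave 10 to 26 higher and 6 to 62 lower genes, with the extremes of the lower count without the SF_HFD library 4 and the SF_CD library 2. DESeq2 called 1 member, Hsp90b1 (log2 fold change -1.25), and 1 gene of the pathway lists, Nfe2l2. Limma-voom turned the sign of Xbp1 (-0.30), Canx (0.17), Dnajb9 (-0.25) and Herpud1 (-0.52). Without the 3 shallow libraries the sign turned for Xbp1 (-0.086), Canx (0.43) and Herpud1 (-0.50). Leaving out 1 library gave -0.13 to 0.20 for Xbp1, -0.31 to 0.26 for Canx, -0.37 to 0.032 for Pdia6 and -0.18 to 0.32 for Herpud1. Of the 45 pairs of members 8 passed the adjusted p, against 1 without the 3 shallow libraries and 1 to 9 when leaving out 1 library (4 without the SF_HFD library 5, 2 and 1 without the SF_CD libraries 1 and 5). Libraries that share a replicate number did not deviate together (r between -0.211 and 0.136, and only number 3 matched its own number best). With the replicate block 11 genes were called higher and 11 lower, the log2 fold change of Pdia6 was 0.013, and the median of all genes was 0.11, against 0.02 without the block. The causes of these changes were not tested. In the shallow libraries depth limits Dnajb9, Herpud1 and Xbp1 most.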
